A study of Homo sapiens with 8 samples.

Results

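The genes described are those of the other proteins named heterogeneous nuclear ribonucleoprotein (hnRNP) in a study of RNA bound by hnRNP U: HNRNPA0, HNRNPA1, HNRNPA2B1, HNRNPA3, HNRNPC, HNRNPD, HNRNPF, HNRNPH1, HNRNPK and HNRNPM. The rule that picks them uses their names and no measured value, although it was set with earlier results of these data known. Of the 10 genes, 9 were measured among 13471 genes in all, and HNRNPF was not analysed here. The 9 passed into every fit, since no filter on low values was applied.

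The hnRNP proteins are abundant RNA-binding proteins that coat nascent transcripts in the nucleus and take part in splicing, 3′ end formation, export, stability and translation of messenger RNA. The A and B proteins, C and D bind RNA mainly through RNA recognition motifs, HNRNPH1 and HNRNPF through a variant of that motif that reads runs of G, and HNRNPK through KH domains that prefer runs of C. Levels of many of these proteins are set in part by feedback on their own transcripts through alternative splicing. hnRNP U, also called SAF-A, binds RNA through an RGG-rich stretch and DNA through a SAP domain.

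The cells were hTERT-RPE1, a line of human retinal pigment epithelium kept dividing by telomerase. Interphase cells had been held for 24 h in 2 mM thymidine, which stalls DNA replication. Mitotic cells had received the same thymidine for 24 h, a release of 6 h and then, overnight, STLC, which blocks the spindle motor Eg5, so all groups shared the thymidine step and only the mitotic ones the arrest by STLC. From each phase RNA was sequenced without immunoprecipitation (IP) and after IP with an anti-hnRNP U antibody, in 2 libraries for each of the 4 groups.

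Values were FPKM, sequenced fragments divided by transcript length and by library size. How many fragments each library held is unknown, so limits from depth were not computed. Steps between low values gave depths of 0.639 to 1.19 relative to interphase without IP replicate 1, read from 32 to 70 of 760 low genes in each other library. The mitotic IP held both the shallowest and the deepest library. Over all genes, the log2 values of replicates had a Pearson's r between 0.989 and 0.995. Without IP, all 10 of 10 listed mitosis genes (such as CCNB1 and PLK1) were called higher in mitosis, and 7 of 10 listed G1/S genes were called lower and 1 higher. Of 11 listed genes of the retinal pigment epithelium, 5 were measured, with summed levels of 132 to 141 FPKM in interphase and 108 to 112 FPKM in mitosis without IP. These came almost wholly from the epithelial keratins KRT8 and KRT18 and from MITF and OTX2, since PMEL averaged at most 0.114 FPKM in any group. The other listed genes, RPE65, BEST1, RLBP1, TYR, TTR and SERPINF1, were not analysed here. Of the genes listed for other cell types, the photoreceptor gene NRL reached at most 0.764 FPKM. The 3 of 5 fibroblast genes that were measured summed to 132 to 159 FPKM without IP, almost all from THY1, to 39.9 to 40.9 FPKM in the interphase IP and to 119.6 to 143 FPKM in the mitotic IP. The part of these marker levels in the results below was not tested. The labels do not say that replicates came from separate cultures, so p-values measure the spread between these libraries only.

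HNRNPH1 had the highest level of the 9 genes in each of the 4 groups, and the lowest was HNRNPA3 without IP and HNRNPM in the IP. In interphase without IP the order of mean FPKM was HNRNPH1 at 78.3 ± 4.52 (SD, n = 2), HNRNPA2B1 at 59.3 ± 10.7, HNRNPK at 55.7 ± 5.37, HNRNPC at 52.3 ± 0.918, HNRNPA1 at 49.6 ± 0.892, HNRNPA0 at 32.3 ± 2.57, HNRNPD at 29.3 ± 1.92, HNRNPM at 21.4 ± 5.27 and HNRNPA3 at 10 ± 0.317. Libraries of neighbours in this order overlapped for HNRNPA2B1 with HNRNPK, HNRNPK with HNRNPC, and HNRNPA0 with HNRNPD, so these neighbours were not told apart. In mitosis without IP, HNRNPH1 at 186 ± 9.26 FPKM and HNRNPA2B1 at 135.0 ± 7.04 FPKM stood clear of the other 7 genes. HNRNPA1, HNRNPC, HNRNPK and HNRNPM followed at 67.0 ± 3.21, 66.3 ± 4.62, 62.5 ± 7.69 and 57.8 ± 1.58 FPKM, each overlapping the next, ahead of HNRNPD at 52.6 ± 0.92, HNRNPA0 at 25.9 ± 1.73 and HNRNPA3 at 21.5 ± 0.735 FPKM.

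In the interphase IP the order ran from HNRNPH1 at 83.6 ± 4.79 FPKM through HNRNPK at 72.9 ± 4.48, HNRNPC at 58.0 ± 7.16, HNRNPA1 at 57.5 ± 2.77, HNRNPA2B1 at 41.6 ± 10.8, HNRNPA3 at 33.5 ± 0.807, HNRNPD at 33.0 ± 7.21 and HNRNPA0 at 22.3 ± 0.458 to HNRNPM at 16.7 ± 2.84 FPKM. HNRNPC overlapped HNRNPA1, and HNRNPA3 overlapped both HNRNPA2B1 and HNRNPD. In the mitotic IP, HNRNPH1 at 213 ± 8.4 FPKM and HNRNPK at 107 ± 13.4 FPKM led, and HNRNPA0 at 14.2 ± 2.43 and HNRNPM at 13.2 ± 0.289 FPKM were last and overlapped. The levels of the 9 genes summed to 409.9 and 367 FPKM in interphase without IP, 434 and 404 in the interphase IP, 651 and 699 in mitosis without IP, and 681 and 709 in the mitotic IP. The sum was thus higher in every mitotic library than in every interphase library. HNRNPH1 alone made up 19.9% to 20.5% of it in the 4 interphase libraries, 27.6% in both mitotic libraries without IP, and 30.5% and 30.9% in the mitotic IP.

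**Figure D1:**
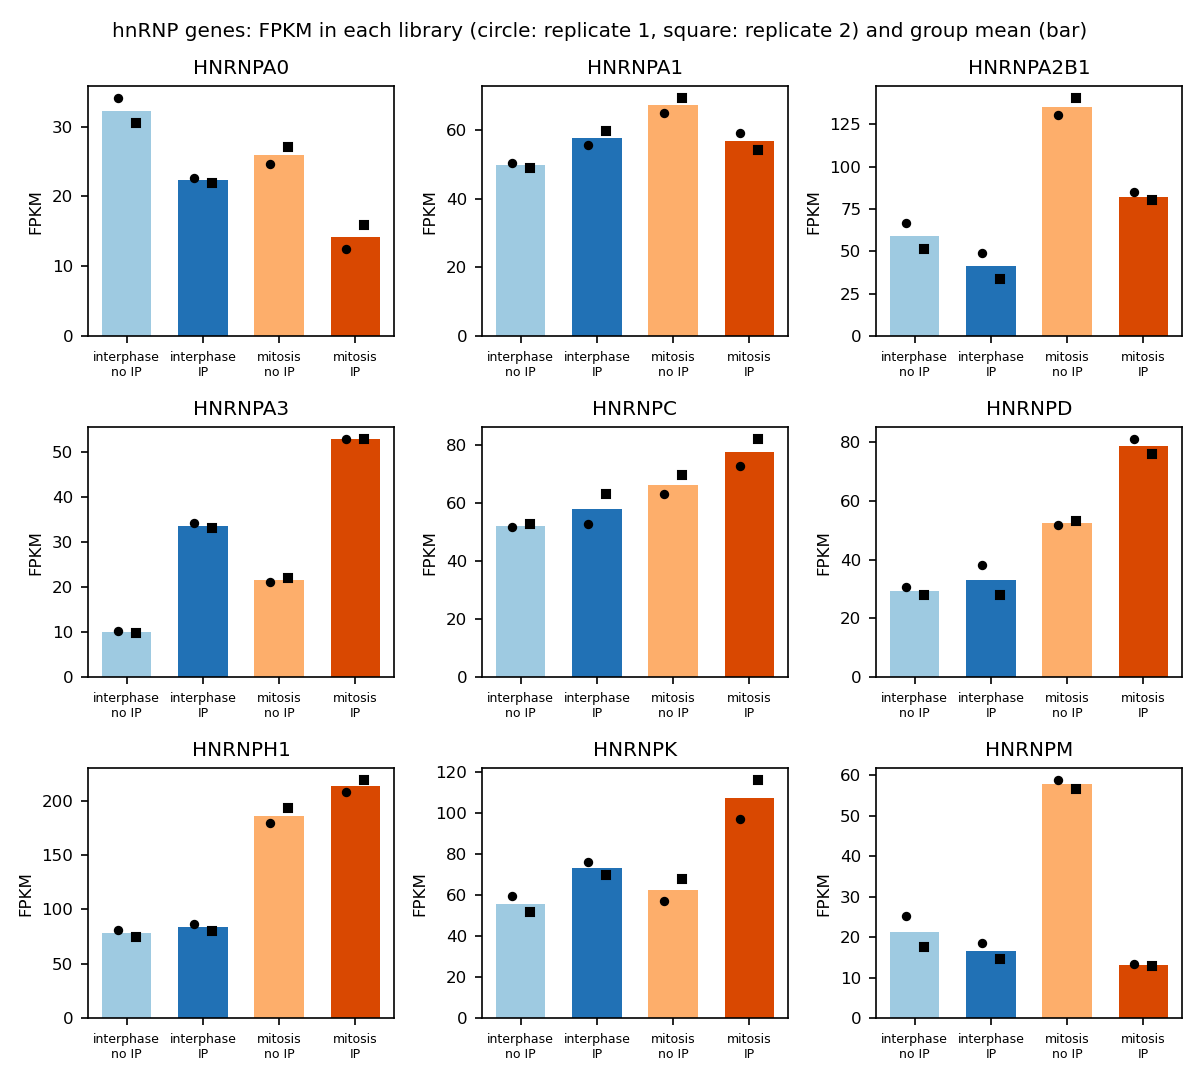
FPKM (linear axis from 0, scaled per gene) of the 9 hnRNP genes by group; circles are replicate 1, squares replicate 2, and bars group means (n = 2). HNRNPH1 lies highest in each group, HNRNPA3 lies near 10 FPKM in interphase without IP and at 52.8 in the mitotic IP, and HNRNPM drops from 57.8 FPKM in mitosis without IP to 13.2 in the mitotic IP.

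In cells without IP, mitosis against interphase, 7 of the 9 genes rose and none was called lower. By limma (a linear model fitted to log2(FPKM + 1) over all genes, with a call at a Benjamini-Hochberg adjusted p below 0.05), 51.7% of all genes were called in this comparison, 26.2% higher and 25.5% lower. The median log2 fold change of the 9 was 0.82, against 0.00 for all genes. In bulk RNA, fewer cells that express a gene and less of its RNA per cell cannot be told apart. Overlap of libraries, here and below, is a description and not a test. With 2 libraries a group, groups can lie apart without a difference, and the share of all genes that did was not computed.

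HNRNPM, a regulator of splicing that binds GU-rich RNA, had 25.2 and 17.7 FPKM in interphase and 58.9 and 56.6 FPKM in mitosis. Both mitotic libraries lay above both interphase libraries, and the 2 interphase libraries differed more from each other than the mitotic ones did. The level rose 2.69-fold (log2 fold change 1.41 ± 0.17 SE, limma adjusted p = 0.000236), a change above that of 97.6% of all genes. HNRNPH1, which binds G-rich stretches near splice sites, had 81.5 and 75.1 FPKM in interphase and 179.7 and 193 FPKM in mitosis. It rose 2.38-fold with no overlap (log2 1.24 ± 0.12, limma adjusted p = 8.15e-05). HNRNPH1 lies on the minus strand of chromosome 5 and HNRNPM on the plus strand of chromosome 19.

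The promoters of the gene that rose most (HNRNPM), of the most abundant gene (HNRNPH1), and of HNRNPA0, the one gene with a negative fold change, are shown, because they differ in the short motifs they hold. Each is 300 bases long and spans the annotated start, 5′ to 3′ on the gene's strand, from RefSeq on GRCh38.p14: chr19:8444725-8445024 (plus strand), chr5:179623622-179623921 (minus strand) and chr5:137754314-137754613 (minus strand). Capitals mark CACGTG (an E-box), GCCATTT (a YY1-type motif) and CCAAT, or their reverse complements AAATGGC and ATTGG.
HNRNPM: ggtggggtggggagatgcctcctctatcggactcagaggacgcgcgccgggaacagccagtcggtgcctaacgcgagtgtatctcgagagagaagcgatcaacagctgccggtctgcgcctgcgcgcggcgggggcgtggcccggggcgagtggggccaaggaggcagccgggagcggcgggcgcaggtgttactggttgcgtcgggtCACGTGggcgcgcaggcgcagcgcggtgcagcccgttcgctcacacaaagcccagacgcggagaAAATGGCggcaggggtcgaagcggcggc
HNRNPH1: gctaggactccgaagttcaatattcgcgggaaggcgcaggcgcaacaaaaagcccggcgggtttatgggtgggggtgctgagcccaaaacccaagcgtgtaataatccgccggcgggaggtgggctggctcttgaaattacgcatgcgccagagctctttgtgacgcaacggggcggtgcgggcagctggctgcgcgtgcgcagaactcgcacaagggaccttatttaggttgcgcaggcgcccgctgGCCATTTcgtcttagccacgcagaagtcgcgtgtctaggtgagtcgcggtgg
HNRNPA0: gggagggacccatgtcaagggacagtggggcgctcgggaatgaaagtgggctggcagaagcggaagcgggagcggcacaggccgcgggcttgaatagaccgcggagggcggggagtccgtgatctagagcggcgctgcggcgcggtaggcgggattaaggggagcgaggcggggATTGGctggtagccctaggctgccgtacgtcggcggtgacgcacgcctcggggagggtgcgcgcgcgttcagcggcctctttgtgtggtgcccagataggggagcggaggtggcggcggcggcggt
The HNRNPM promoter has 70.7% GC and holds CACGTG and, on the other strand, GCCATTT. The HNRNPH1 promoter has 61.3% GC and holds GCCATTT at its annotated start, and the HNRNPA0 promoter has 70.3% GC and holds only the CCAAT motif, on the other strand. Promoters were in hand for 8 of the 9 genes, all but HNRNPA1. Searched on both strands, CACGTG was found in 3 of the 8 (HNRNPA3, HNRNPD and HNRNPM), CCAAT in 4 (HNRNPA0, HNRNPA2B1, HNRNPA3 and HNRNPC) and GCCATTT in 4 (HNRNPC, HNRNPD, HNRNPH1 and HNRNPM), and in HNRNPK none of these letters was found. Among all 35116 promoters of the same length, the shares were 7.26%, 34.6% and 4.39%. Those had medians of 58.7% GC and 14 CG steps, while the 8 had 49.3% to 70.7% GC and 15 to 40 CG steps. The 3 motifs were chosen after these promoters had been read. For both reasons the counts in the 8 and the shares over all promoters do not show an enrichment. None of the matches overlapped another, and a match describes the sequence only. For HNRNPH1, with 4 annotated starts, and HNRNPK, with 2, the start nearest to the 5′ end of the measured interval was used.

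Among the A and B proteins, which bind pre-mRNA and oppose SR proteins at many splice sites, the transcripts did not move alike. HNRNPA2B1, also a reader of sorting signals in RNA, had 66.8 and 51.7 FPKM in interphase and 130.4 and 140.4 FPKM in mitosis. It rose 2.28-fold (log2 1.19 ± 0.18, limma adjusted p = 0.000868), and the groups did not overlap. HNRNPA3, a close relative of HNRNPA1 and HNRNPA2B1, had 10.3 and 9.82 FPKM in interphase and 21.0 and 22.0 FPKM in mitosis. Its rise of 2.14-fold (log2 1.03 ± 0.09, limma adjusted p = 5.32e-05) exceeded the spread of its replicates. HNRNPA1, the archetypal splicing repressor of the family, rose 1.35-fold from 50.2 and 48.9 to 64.7 and 69.2 FPKM (log2 0.43 ± 0.10, limma adjusted p = 0.00707).

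HNRNPA0, a binder of AU-rich elements, had 34.1 and 30.5 FPKM in interphase and 24.6 and 27.1 FPKM in mitosis. Both mitotic values lay below both interphase values, yet the change was not called (log2 -0.31 ± 0.13, limma adjusted p = 0.0697, 0.0385 unadjusted). HNRNPA0 is a gene of a single exon, the only one without introns among the 9. It was called lower under quantile normalization (log2 -0.39, limma adjusted p = 0.0248), median centring, a fit of these groups alone and a removal of length and GC trends.

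HNRNPD, also called AUF1, binds AU-rich elements and promotes decay of many messenger RNAs. It had 30.7 and 28.0 FPKM in interphase and 51.9 and 53.2 FPKM in mitosis, and rose 1.79-fold (log2 0.82 ± 0.14, limma adjusted p = 0.00155). HNRNPC, which binds runs of U and sorts transcripts by length for export, went from 51.7 and 53.0 to 63.1 and 69.6 FPKM (log2 0.34 ± 0.12, limma adjusted p = 0.0446). The groups did not overlap for either gene. HNRNPK, a binder of C-rich RNA and DNA, had 59.5 and 51.9 FPKM in interphase and 57.0 and 67.9 FPKM in mitosis, so its groups overlapped (log2 0.16 ± 0.14, 95% interval -0.15 to 0.47). The HNRNPC call was lost when any 1 of the 4 libraries without IP was left out (log2 0.27 to 0.41, limma adjusted p up to 0.208), with median centring (log2 0.26, adjusted p = 0.123) and with length and GC trends removed (log2 0.12, adjusted p = 0.322). The HNRNPA1 call was lost only without mitosis replicate 2 (log2 0.38, adjusted p = 0.0525).

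**Figure D2:**
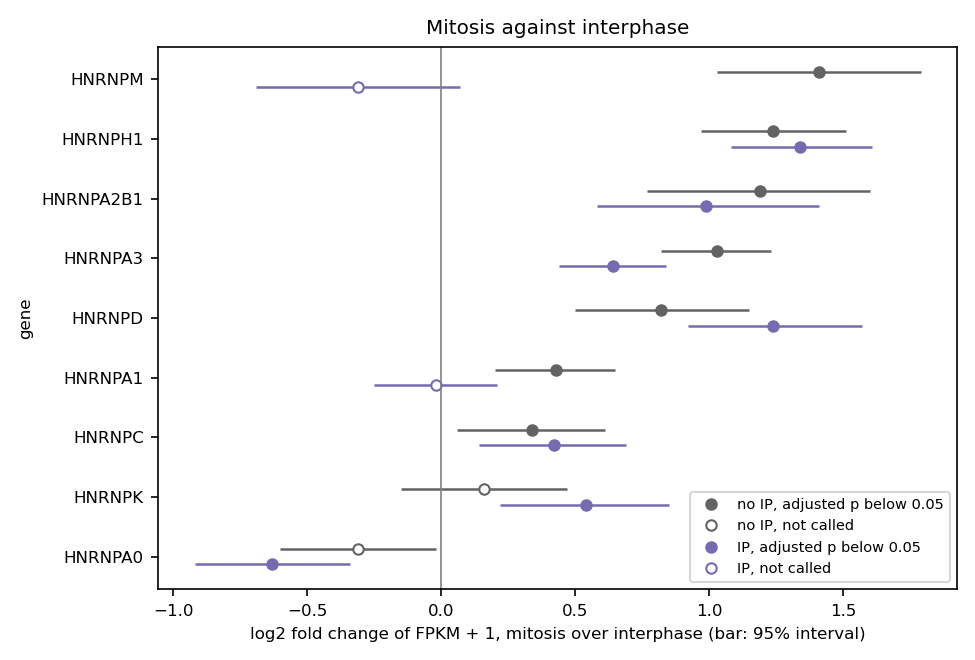
Log2 fold change of FPKM + 1, mitosis over interphase, for the 9 hnRNP genes, without IP (grey) and in the IP (purple); filled points are called at an adjusted p below 0.05, open ones are not, and lines are 95% intervals from limma. Without IP the values run from -0.31 for HNRNPA0 to 1.41 for HNRNPM, and in the IP HNRNPM lies at -0.31.

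Other groups of RNA-processing genes, listed by role, were read in the same comparison. Of 24 further genes of hnRNP-type proteins (such as HNRNPL, SYNCRIP and PTBP1), 14 were called higher and 0 lower without IP, and their median was 0.52 on the log2 scale. Of 13 genes of SR proteins, which promote exon inclusion, 2 were called higher and 2 lower (median 0.05). Of 35 genes of core spliceosome proteins, 12 were higher and 10 lower (median 0.04). The SR and core spliceosome lists had calls in both directions, where 26.2% of all genes were called higher and 25.5% lower. Under the alternatives, apart from the fits that left out a library, 14 to 16 of the hnRNP-type genes were higher and 0 to 2 lower. SYNCRIP, also called hnRNP Q, was among the hnRNP-type genes that rose, 2.77-fold, from 28.1 and 27.0 to 77.7 and 74.6 FPKM (log2 1.43 ± 0.10, limma adjusted p = 1.55e-05). HNRNPL, which binds CA-rich RNA, rose 1.79-fold, from 45.0 and 46.8 to 78.5 and 85.7 FPKM (log2 0.82 ± 0.10, limma adjusted p = 0.000237).

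**Figure D3:**
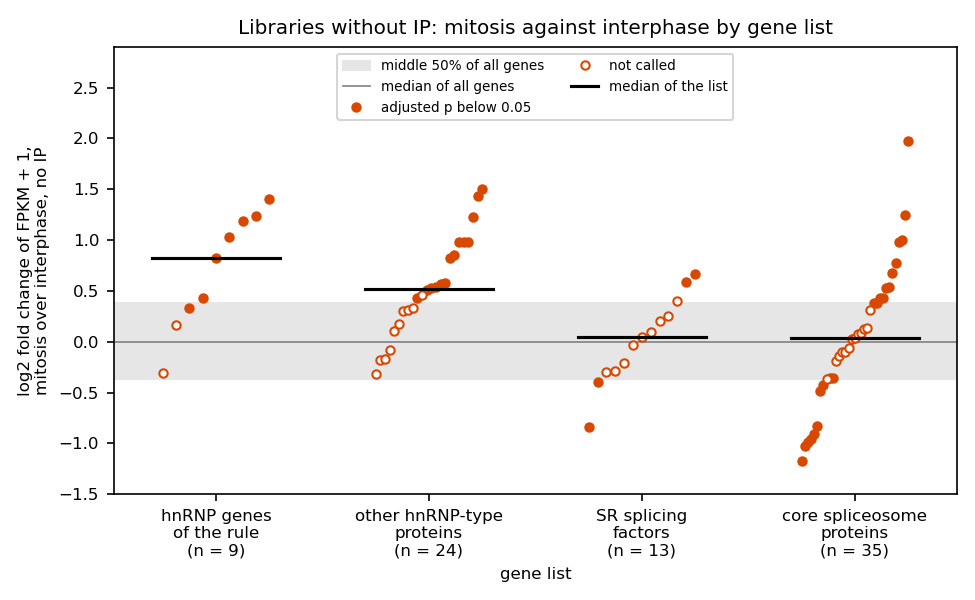
Log2 fold change of FPKM + 1, mitosis over interphase without IP, for each gene (points) of the 9 hnRNP genes, 24 other hnRNP-type genes, 13 SR splicing factor genes and 35 core spliceosome genes; filled points are called at an adjusted p below 0.05, black lines mark list medians, and the grey band holds the middle 50% of all genes. The medians are 0.82, 0.52, 0.05 and 0.04.

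IP against no IP asks which RNAs made up a larger or smaller share of the RNA recovered with hnRNP U. No control-antibody IP was analysed here, and RNA bound by the protein cannot be told apart from RNA that sticks to the beads. FPKM are relative to each library, so a fold change is one of share. In interphase, 2 of the 9 genes were higher in the IP (HNRNPA3 and HNRNPK), 2 lower (HNRNPA0 and HNRNPA2B1) and 5 not called. Of all genes 74.6% were called, 37.6% higher and 37% lower, so 4 of 9 is a smaller share than over all genes. The median log2 fold change of the 9 was 0.14, against 0.02 for all genes.

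HNRNPA3 had 10.3 and 9.82 FPKM without IP and 34.1 and 33.0 FPKM in the interphase IP. Its replicates lay close together in both groups, with a wide gap between the groups. It was 3.34-fold higher in the IP (log2 1.64 ± 0.09, limma adjusted p = 7.38e-07), above 95.8% of all genes. With length and GC trends removed this call was lost (log2 0.21, adjusted p = 0.0904). HNRNPK had 59.5 and 51.9 FPKM without IP and 76.1 and 69.7 FPKM in the IP (log2 0.38 ± 0.14, limma adjusted p = 0.0304), with no overlap, and turned to -0.27 with those trends removed. HNRNPA0 was lower in both IP libraries, at 22.6 and 22.0 against 34.1 and 30.5 FPKM (log2 -0.51 ± 0.13, limma adjusted p = 0.00514; -1.91 with trends removed). HNRNPA2B1 fell from 66.8 and 51.7 to 49.2 and 33.9 FPKM (log2 -0.51 ± 0.18, limma adjusted p = 0.029; -1.58 with trends removed), and its replicates differed widely in both groups.

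The other 5 genes were not called in interphase. HNRNPA1 had 55.5 and 59.5 FPKM in the IP, above both libraries without IP (log2 0.21, 95% interval -0.02 to 0.44), and was called higher with median centring (log2 0.33, adjusted p = 0.0165). HNRNPC, HNRNPD and HNRNPH1 had log2 fold changes of 0.14, 0.15 and 0.09, and their groups overlapped. HNRNPM had 18.7 and 14.7 FPKM in the IP and 25.2 and 17.7 without it, also overlapping (log2 -0.33, 95% interval -0.71 to 0.04). The call on HNRNPA2B1 was lost without interphase no-IP replicate 1 (log2 -0.33, adjusted p = 0.198), without interphase IP replicate 2 (log2 -0.25, adjusted p = 0.211), with median centring (log2 -0.39, adjusted p = 0.0676) and in a fit of these groups alone (adjusted p = 0.051). That on HNRNPK was lost without interphase IP replicate 1 (log2 0.32, adjusted p = 0.122) or no-IP replicate 2 (log2 0.29, adjusted p = 0.179), and without interphase IP replicate 1 HNRNPD turned to -0.07, while HNRNPD was called higher without IP replicate 2 (log2 0.37, adjusted p = 0.0222) and with trends removed (log2 0.54, adjusted p = 0.011), and HNRNPM was called lower without IP replicate 1 (log2 -0.50, adjusted p = 0.0456) or no-IP replicate 2 (log2 -0.57, adjusted p = 0.0122).

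In mitosis, 3 genes were higher in the IP (HNRNPA3, HNRNPD and HNRNPK), 3 lower (HNRNPA0, HNRNPA2B1 and HNRNPM) and 3 not called. Of all genes 64.5% were called, 32.8% higher and 31.7% lower, close to the share of 6 in 9. The median log2 fold change was 0.20, against 0.01 for all genes.

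HNRNPM had 58.9 and 56.6 FPKM in mitosis without IP and 13.4 and 13.0 FPKM in the mitotic IP. Both replicate pairs showed nearly the same drop, with log2 fold changes of -2.06 and -2.04. The level was 4.38-fold lower in the IP (log2 -2.05 ± 0.17, limma adjusted p = 1.55e-05), and only 0.9% of all genes had a lower value. HNRNPA0 fell from 24.6 and 27.1 to 12.5 and 15.9 FPKM (log2 -0.83 ± 0.13, limma adjusted p = 0.00042), and HNRNPA2B1 from 130.4 and 140.4 to 84.7 and 80 FPKM (log2 -0.71 ± 0.18, limma adjusted p = 0.00777). Neither gene's groups overlapped.

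HNRNPA3 was again higher in the IP, at 52.8 FPKM in both libraries against 21.0 and 22.0 FPKM (2.45-fold, log2 1.26 ± 0.09, limma adjusted p = 9.7e-06). HNRNPK had 97.0 and 116 FPKM in the IP against 57.0 and 67.9 FPKM (1.70-fold, log2 0.76 ± 0.14, limma adjusted p = 0.00116). HNRNPD had 81.0 and 76.0 FPKM in the IP against 51.9 and 53.2 FPKM (1.49-fold, log2 0.57 ± 0.14, limma adjusted p = 0.00677). The groups were apart for each of these genes, and the HNRNPD call was lost with quantile normalization (log2 0.36, adjusted p = 0.0759). HNRNPA1, HNRNPC and HNRNPH1 had log2 fold changes of -0.24, 0.22 and 0.20 and were not called. Their IP and no-IP libraries did not overlap, which with 2 libraries a group does not show a difference. HNRNPA1 was called lower and HNRNPH1 higher with quantile normalization (log2 -0.47 and 0.42, adjusted p = 0.00217 and 0.034), and with length and GC trends removed HNRNPA1 was called lower (log2 -0.40, adjusted p = 0.00502) and HNRNPH1 turned to -0.11.

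**Figure D4:**
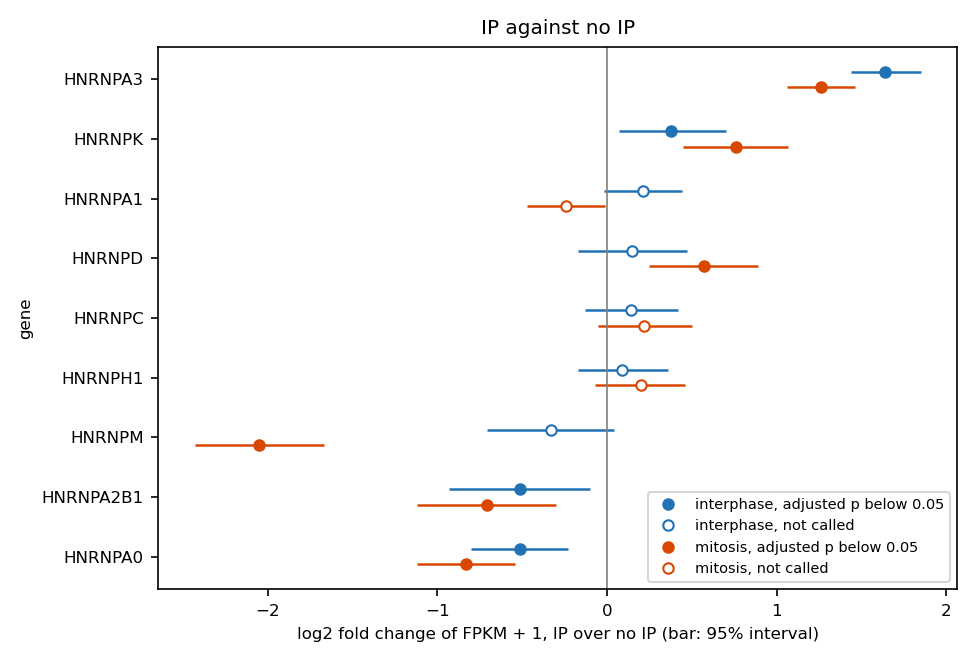
Log2 fold change of FPKM + 1, IP over no IP, for the 9 hnRNP genes in interphase (blue) and in mitosis (orange); filled points are called at an adjusted p below 0.05, open ones are not, and lines are 95% intervals from limma. HNRNPM moves from -0.33 in interphase to -2.05 in mitosis, while HNRNPA3 lies at 1.64 and 1.26.

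Whether the effect of the IP differed between phases was tested as an interaction, in which 47.1% of all genes were called, 27.2% higher and 19.9% lower. Of the 9 genes, 3 were called, all lower in mitosis: HNRNPM, HNRNPA1 and HNRNPA3. None was called higher, and none reached an unadjusted p below 0.05 in that direction (0 genes by limma, the only tool run). For HNRNPM the difference in log2 fold change was -1.72 ± 0.23 (95% interval -2.25 to -1.18, limma adjusted p = 0.000541). It ranged from -1.96 to -1.47 with each of the 8 libraries left out in turn and kept its call each time. The HNRNPM level without IP was higher in mitosis than in interphase, at 57.8 ± 1.58 against 21.4 ± 5.27 FPKM, while that in the IP was 13.2 ± 0.289 against 16.7 ± 2.84 FPKM. The difference rested on libraries without IP that were 2.69-fold apart and IP libraries that were 1.26-fold apart in the opposite direction.

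HNRNPA1 had IP values above no-IP values in interphase and below them in mitosis, and its difference was -0.45 ± 0.14 (limma adjusted p = 0.029). For HNRNPA3 the IP values exceeded those without IP in interphase and in mitosis, by less in mitosis (difference -0.39 ± 0.13, limma adjusted p = 0.0322). For HNRNPD and HNRNPK, called higher in the mitotic IP, the differences of 0.42 (95% interval -0.04 to 0.88) and 0.38 (-0.07 to 0.82) were not called, so the effects were not shown to differ between phases. The call on HNRNPA1 was lost in 6 of 8 fits with a library left out, all but those without interphase IP or mitotic IP replicate 1 (log2 -0.50 to -0.39, adjusted p up to 0.0994), and that on HNRNPA3 in 7 of 8, all but that without interphase IP replicate 2 (log2 -0.42 to -0.35, adjusted p up to 0.106). HNRNPD was called higher without interphase IP replicate 1 (0.64, adjusted p = 0.011) and HNRNPA0 lower without mitotic IP replicate 2 (-0.48, adjusted p = 0.048), while HNRNPA2B1 turned to 0.07 and HNRNPC to -0.04 without interphase IP replicate 1, and HNRNPC was at 0.00 without mitotic IP replicate 2.

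Within the IP, mitosis against interphase, 6 of the 9 genes rose (HNRNPA2B1, HNRNPA3, HNRNPC, HNRNPD, HNRNPH1 and HNRNPK) and 1 fell (HNRNPA0), where 61.4% of all genes were called, 35.8% higher and 25.6% lower. This comparison uses the IP libraries of the tests above. HNRNPH1 went from 87.0 and 80.2 FPKM to 208 and 219 FPKM, a rise of 2.55-fold (log2 1.34 ± 0.12, limma adjusted p = 1.97e-05). HNRNPD rose 2.38-fold, from 38.1 and 27.9 to 81.0 and 76.0 FPKM (log2 1.24 ± 0.14, limma adjusted p = 8.68e-05). HNRNPA2B1 rose 1.98-fold (log2 0.99, limma adjusted p = 0.00138) and HNRNPA3 1.57-fold (log2 0.64, limma adjusted p = 0.000274). The groups did not overlap for any of these genes.

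HNRNPK rose 1.46-fold from 76.1 and 69.7 to 97.0 and 116 FPKM (log2 0.54 ± 0.14, limma adjusted p = 0.00836). HNRNPC went from 53.0 and 63.1 to 73.0 and 82.2 FPKM (log2 0.42 ± 0.12, limma adjusted p = 0.0152). HNRNPA0 fell from 22.6 and 22.0 to 12.5 and 15.9 FPKM (log2 -0.63 ± 0.13, limma adjusted p = 0.00237). Neither HNRNPA1 (log2 -0.02, 95% interval -0.25 to 0.21) nor HNRNPM (log2 -0.31, 95% interval -0.69 to 0.07) was called. With quantile normalization the calls on HNRNPK and HNRNPC were lost (log2 0.28 and 0.17, adjusted p = 0.143 and 0.231) and HNRNPA1 and HNRNPM were called lower (log2 -0.30 and -0.44); median centring also ended the HNRNPC call (log2 0.31, adjusted p = 0.0638), and called HNRNPM lower (log2 -0.42, adjusted p = 0.0428), as did the removal of length and GC trends (log2 -0.50, adjusted p = 0.0205). Without mitotic IP replicate 2, HNRNPK (log2 0.41, adjusted p = 0.0568) and HNRNPC (log2 0.33, adjusted p = 0.0878) were not called and HNRNPA1 turned to 0.04; without interphase IP replicate 1 HNRNPC was not called (log2 0.29, adjusted p = 0.0847), and without interphase IP replicate 2 HNRNPA1 turned to 0.03.

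The further hnRNP-type genes had calls in both directions as well. In interphase 9 of 24 were called higher and 7 lower (median 0.10, log2), and in mitosis 9 and 7 (median 0.12). Over all genes, 37.6% were called higher and 37% lower in interphase, and 32.8% and 31.7% in mitosis, so these calls were near those shares. For core spliceosome genes 6 were higher and 22 lower of 35 in interphase (median -0.89), and 4 higher and 23 lower in mitosis (median -1.02). For SR genes 5 were higher and 2 lower of 13 in interphase (median 0.05), and 5 and 3 in mitosis (median -0.03). With length and GC trends removed, the hnRNP-type genes had 5 higher and 10 lower in interphase and 6 higher and 11 lower in mitosis. The 13 SR genes then had 2 and 7 in interphase and 3 and 7 in mitosis. Shares by direction over all genes were not computed for that fit. The core spliceosome genes then had 6 higher and 18 lower in interphase and 3 and 23 in mitosis. Over all genes, 7809 of 13119 were called in that fit in interphase and 8061 in mitosis, with median log2 fold changes of -0.10 and 0.03. In the test of the difference between phases, 5 of the 24 hnRNP-type genes were called higher in mitosis and 7 lower (median -0.04). The counts were 1 and 3 for the SR genes (median -0.14), and 13 and 11 for the core spliceosome genes (median 0.03). Over all genes the shares were 27.2% higher and 19.9% lower.

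Among the hnRNP-type genes, PTBP3, a relative of the splicing repressor PTBP1, had the largest log2 fold change of the IP in interphase. It had 17.2 and 16.8 FPKM without IP and 75.7 and 82.9 FPKM in the interphase IP. It was 4.66-fold higher in interphase (log2 2.16, limma adjusted p = 1.83e-06) and 2.74-fold higher in mitosis (log2 1.43, limma adjusted p = 3.79e-05). SYNCRIP was 2.51-fold and 2.76-fold higher, and RBMX, an RGG-containing splicing factor also called hnRNP G, 1.91-fold and 2.81-fold. RALY, a relative of HNRNPC, had the smallest log2 fold change in interphase. It had 17.1 and 18.4 FPKM without IP and 3.48 and 3.52 FPKM in the IP, 5.07-fold lower (log2 -2.06, limma adjusted p = 5.35e-07). PCBP4, a KH-domain protein that binds C-rich RNA, was 4.71-fold lower in interphase, and the cold-inducible RNA-binding protein CIRBP 3.52-fold lower. In mitosis HNRNPUL1, a relative of hnRNP U, had the smallest log2 fold change. It had 72.3 and 60.1 FPKM without IP and 14.5 and 12.8 FPKM in the IP, 4.86-fold lower (log2 -2.20, limma adjusted p = 6.4e-06). KHSRP, which promotes decay of AU-rich messenger RNAs, was 3.33-fold lower and HNRNPL 2.95-fold lower. With length and GC trends removed, the interphase log2 values shrank to 0.48 for PTBP3, -0.67 for RALY, -0.85 for PCBP4 and -0.98 for CIRBP, and SYNCRIP turned to -0.31. In mitosis PTBP3 was then at 0.53, SYNCRIP at 0.56, HNRNPUL1 at -1.84, KHSRP at -1.16 and HNRNPL at -1.26. RBMX was then at 0.66 in interphase and 1.23 in mitosis, and stayed called higher in both. The list of hnRNP-type genes also holds HNRNPU itself.

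Transcript length and base composition were set beside the effect of the IP, since both move with it over all genes. Over 13119 genes with an annotated transcript, Spearman's rho of GC content with the IP effect was -0.71 in interphase and -0.56 in mitosis, and that with length was 0.50 and 0.26. These are descriptions across genes, which are not independent. Over the 9 hnRNP genes rho with GC was -0.05 and -0.35, and with length -0.17 and -0.02. HNRNPA3, with the largest log2 fold change of the IP in each phase, had the lowest GC content of the 9 transcripts, 37.3% over 5688 nt. HNRNPM, with the smallest log2 fold change in mitosis, had the highest, 54.9% over 2568 nt. HNRNPA2B1 and HNRNPA0 were lower in the IP at 38.4% and 41.1% GC, below the median of 48.4% over all genes. For HNRNPA0 the annotated transcript of 8726 nt reaches beyond the measured interval, and the 2967 bases inside that interval have 48.5% GC.

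To show the contrast at the sequence level, the central 150 bases of the coding sequences of HNRNPA3 and HNRNPM are given, with G and C in capitals, 5′ to 3′ as in the spliced messenger RNA. They come from the GENCODE release 29 transcripts on GRCh38 and lie, across introns, at chr2:177216162-177216708 (plus strand, coding bases 461 to 610) and chr19:8474205-8485658 (plus strand, coding bases 964 to 1113).
HNRNPA3: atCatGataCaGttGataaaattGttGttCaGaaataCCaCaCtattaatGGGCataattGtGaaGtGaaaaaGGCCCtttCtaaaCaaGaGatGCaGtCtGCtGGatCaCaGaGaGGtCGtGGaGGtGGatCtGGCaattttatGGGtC
HNRNPM: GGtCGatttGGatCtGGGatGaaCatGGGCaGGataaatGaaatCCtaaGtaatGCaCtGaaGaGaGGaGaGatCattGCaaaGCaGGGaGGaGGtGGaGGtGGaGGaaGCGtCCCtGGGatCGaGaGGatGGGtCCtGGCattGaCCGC
The HNRNPA3 stretch has 40% GC and the HNRNPM stretch 52.7%, against 44.5% and 56.0% over the whole coding sequences of 1071 and 2076 bases. Behind the coding sequence HNRNPA3 carries 4566 bases at 35.4% GC and HNRNPM 260 bases at 32.3%, so most of the HNRNPA3 transcript, and little of that of HNRNPM, is AT-rich sequence after the coding part. With the trends in length and GC content removed from each library, HNRNPA3 was no longer called in interphase (log2 0.21, limma adjusted p = 0.0904), and HNRNPK, HNRNPM, HNRNPC and HNRNPH1 changed sign (-0.27, 0.22, -1.02 and -0.29). HNRNPD was then the only one of the 9 called higher in interphase (log2 0.54, limma adjusted p = 0.011), and HNRNPA0 and HNRNPA2B1 were lower by more than before (log2 -1.91 and -1.58). In mitosis HNRNPM stayed lower (log2 -1.80, limma adjusted p = 2.99e-05), HNRNPA0 and HNRNPA2B1 were at -1.49 and -1.34, HNRNPA1 was called lower (log2 -0.40, limma adjusted p = 0.00502), and HNRNPC and HNRNPH1 changed sign (-0.43 and -0.11). HNRNPA3 and HNRNPK remained called higher in mitosis at smaller values (log2 0.45 and 0.34). In the same fit the difference between phases turned positive for HNRNPA3 (0.25, adjusted p = 0.172), HNRNPA0 (0.42) and HNRNPA2B1 (0.24), which were not called, and was called higher for HNRNPC (0.58) and HNRNPK (0.61). Between phases in the IP, the fall of HNRNPA0 was then no longer called (log2 -0.21, adjusted p = 0.182). The transcript used was the longest coding one inside the measured interval, except for HNRNPA0, where none lay inside it, so the HNRNPA0 values with trends removed rest on a length and GC content that are not those of the measured interval. The isoforms present were not measured, so the values of the other genes with trends removed rest on the transcript chosen. For HNRNPC, 33 annotated transcripts lay inside the interval, and the one used held 2952 of its 4501 bases before the coding sequence.

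**Figure D5:**
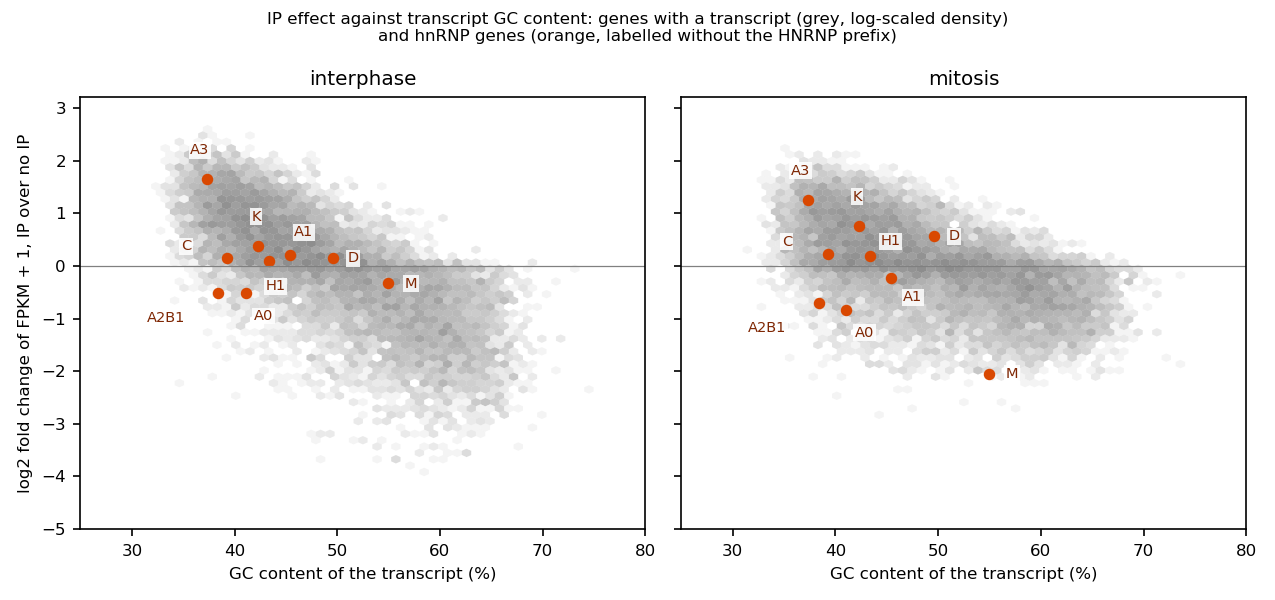
GC content of the annotated transcript (%) against the log2 fold change of FPKM + 1, IP over no IP, for 13119 genes (grey, density on a log scale) and the 9 hnRNP genes (orange points), in interphase (left) and mitosis (right). The grey cloud falls from left to right, HNRNPA3 sits high at 37.3% GC, and HNRNPM in mitosis lies at -2.05 with 54.9% GC.

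The 9 genes lie on 8 chromosomes. On GRCh38 (GENCODE release 29) HNRNPA0 is at chr5:137745651-137754376 and HNRNPH1 at chr5:179614178-179634784, both on the minus strand. HNRNPA1 is at chr12:54280193-54287088, HNRNPA3 at chr2:177212563-177223958 and HNRNPM at chr19:8444767-8489114, all on the plus strand. HNRNPA2B1 is at chr7:26173057-26201529, HNRNPC at chr14:21209136-21269494, HNRNPD at chr4:82352498-82374503 and HNRNPK at chr9:83968083-83980616, all on the minus strand. The transcripts used had 1 exon for HNRNPA0 and 8 to 17 exons for the other 8. None of the measured intervals overlapped that of another gene in the table. Reads may be shared with processed copies, of which the annotation names 74 for HNRNPA1, 16 for HNRNPA3, 9 for HNRNPC, 5 for HNRNPK, 3 for HNRNPH1, and 2 each for HNRNPD and HNRNPM, so the levels of these genes carry that uncertainty. Copies with a value of their own were low, with HNRNPA1L2 at 1.90 to 3.11 FPKM, HNRNPCL1 at 1.03 to 1.95 FPKM, and HNRNPA1P10, HNRNPA3P1 and HNRNPKP3 at no more than 0.409 FPKM.

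The profile of each gene over the 8 libraries was compared with the mean profile of the 9, in log2(FPKM + 1) centred per gene. That mean was -0.28 and -0.45 in interphase without IP, -0.15 and -0.29 in the interphase IP, 0.29 and 0.39 in mitosis without IP, and 0.22 and 0.27 in the mitotic IP. Each gene is part of the mean, so the correlations describe and do not test. HNRNPH1 followed it most closely (Pearson's r = 0.963), then HNRNPD (0.878), HNRNPA2B1 (0.848), HNRNPC (0.782) and HNRNPA1 (0.741). HNRNPA3 (0.536), HNRNPK (0.492) and HNRNPM (0.435) followed it less, and HNRNPA0 ran against it (-0.49). Among 10228 other genes that varied at least as much as the mean, the 5 nearest in shape were XPO5 (r = 0.99), ESPL1 (0.989), SOGA1 (0.981), SMG1P3 (0.98) and RBBP6 (0.978). XPO5, an export receptor for precursor miRNAs, averaged 4.63 FPKM in interphase and 8.84 FPKM in mitosis without IP, and ESPL1, the separase that cleaves cohesin, 2.04 and 9.59 FPKM.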

How the data were processed

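The authors deposited FPKM per gene and library on build hg38, per the file headers, and these deposited FPKM values were used as they stood. Per the submitters' processing notes, TopHat and StringTie were used, with builds hg19 and hg38. The role, order and versions of these tools, the treatment of reads shared between genes and any scaling between libraries are not given in the sources used here. A second deposited table, of long non-coding RNAs, was not used here.

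All 13471 genes and all 8 libraries entered limma (version 3.58.1, R 4.3.3), which used lmFit, then eBayes with its trend option, on log2(FPKM + 1). Each of the 4 groups had its own coefficient, without a filter or a replicate block. The Benjamini-Hochberg adjustment ran over all genes in each of the 5 comparisons, and genes with an adjusted p below 0.05 are called. Fold changes printed with "-fold" are ratios of mean FPKM, and log2 fold changes understate the change of genes near or below 1 FPKM. The fit was also run on simulated data with independent normal noise and 200 genes changed in 1 group. Far more genes were called in the real comparisons, so that run does not test the calls given here. Genes were matched to GENCODE release 29 by symbol (12678) or older symbol (441), and 352 stayed unmatched. The alternatives were a pseudocount of 0.1, a mean FPKM of at least 1, quantile normalization, median centring, a replicate block, only the groups compared, removal of length and GC trends (loess, span 0.5), and leaving out each library. Median centring moved the median of all genes by 0.12 in interphase IP against no IP and by -0.11 in mitosis against interphase in the IP, and removing trends moved the former by -0.12.

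The rule for the 10 genes uses names only, but it and the lists were set with earlier results of these data known. All 10 genes of the rule are named, and of the list of hnRNP-type genes the 3 highest and 3 lowest by log2 fold change of the IP in each phase. SYNCRIP and HNRNPL, named under that rule, are also described without IP. The 5 genes nearest in shape are those with the highest Pearson's r to the mean profile.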

Additional observations from a re-analysis of the deposited data

Results flagged for a closer look

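The test of the difference between the IP effects in mitosis and in interphase (limma interaction, 8 libraries, Benjamini-Hochberg over all genes) marks the genes given here, and 47.1% of all genes were called in it. For HNRNPM the difference in log2 fold change was -1.72, for HNRNPA1 -0.45 and for HNRNPA3 -0.39. HNRNPA1 had a positive value in interphase (0.21) and a negative one in mitosis (-0.24), neither of them called. With 1 library left out at a time the call of HNRNPM held. The calls of HNRNPA1 and HNRNPA3 were lost in most such fits, as given with their results, and the HNRNPA3 difference turned to 0.25 with length and GC trends removed.

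Differences of 7 further hnRNP-type genes also passed. RALY, PCBP4, CIRBP, HNRNPUL1 and KHSRP were named for an extreme IP effect in 1 phase of the same libraries. For these genes, that choice favours a difference of the sign found. PTBP3 and RBMX were named for a high IP effect in each phase. All these genes were named from the libraries tested, so the values are a description and not independent evidence. PCBP4 differed by 1.72, CIRBP by 0.74, RALY by 0.63 and RBMX by 0.56, and HNRNPUL1 differed by -1.08, PTBP3 by -0.73 and KHSRP by -0.72. With length and GC trends removed, RALY turned to -0.11 and PTBP3 to 0.05, and CIRBP was at 0.22, PCBP4 at 1.12, RBMX at 0.56, HNRNPUL1 at -1.17 and KHSRP at -1.03.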

How the results depend on the processing

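Of 522 values of the 9 genes under the alternatives, 450 kept their direction and their side of the threshold, 35 lost a call, 21 gained one and 16 changed sign. A pseudocount of 0.1 and a filter at a mean of 1 FPKM changed no call of the 9 genes. Removing length and GC trends changed most. In interphase IP against no IP 1 gene was then called higher (HNRNPD) and 4 lower (HNRNPA0, HNRNPA2B1, HNRNPC and HNRNPH1). Signs changed, called or not, for HNRNPC (-1.02), HNRNPH1 (-0.29), HNRNPK (-0.27), HNRNPM (0.22) and the hnRNP-type gene SYNCRIP (-0.31). In mitosis 5 were called lower (HNRNPA0, HNRNPA1, HNRNPA2B1, HNRNPC and HNRNPM). Signs changed for HNRNPC (-0.43), HNRNPH1 (-0.11) and the hnRNP-type gene PCBP4 (0.27), the last 2 without a call. The difference of the IP effects then had 2 genes called higher, HNRNPC and HNRNPK. It changed sign without a call for HNRNPA0 (0.42), HNRNPA2B1 (0.24), HNRNPA3 (0.25), RALY (-0.11) and PTBP3 (0.05). Of 13119 genes in all, 7809, 8061 and 5831 were then called in these comparisons. Quantile normalization turned that of HNRNPC to -0.15. Genes lower in the interphase IP were 1 with median centring and 1 with only the groups compared. In mitosis against interphase without IP, 1 gene was lower under quantile normalization, median centring, only the groups compared and trend removal. In the IP, 3 were lower under quantile normalization and 2 with median centring. The cause of these changes was not tested.

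With each library left out in turn, genes higher in the interphase IP numbered 1 to 3 and lower 1 to 3, those higher in the difference 0 to 1 and lower 1 to 2, those higher in mitosis 5 to 6 without IP and 4 to 6 in the IP. HNRNPD in interphase ranged from -0.07 to 0.37, the differences of HNRNPA2B1 from -0.46 to 0.07, of HNRNPC from -0.04 to 0.20 and of HNRNPL from -0.11 to 0.01, and HNRNPA1 in the IP between phases from -0.08 to 0.04. Where a group kept 1 library, that library is assumed to vary like the others. Libraries share replicate numbers only: deviations of same-numbered libraries correlated at 0.0883 to 0.528 between groups. With the replicate block, HNRNPM was called lower in the interphase IP (log2 -0.33, limma adjusted p = 0.0376), and no other call of the 9 genes changed. All-gene calls under the block were 10374, 9099, 6913, 7577 and 8733, against 10051, 8694, 6339, 6963 and 8269. Depth in fragments is unknown, so limits from depth were not computed.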
